A study of Mus musculus with 8 samples.

Results

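The miR-30 family was measured on Agilent mouse microRNA (miRNA) arrays as 10 named strands, out of 611 mouse miRNAs on the design. The strands were set by a rule on names, chosen with earlier results of these data known. The rule takes every array name made of miR-30 and a letter from a to e, with or without a suffix or an asterisk. The strands comprise 5 guide strands (miR-30a, miR-30b, miR-30c, miR-30d and miR-30e) and 5 passenger strands, which the array design marks with an asterisk (miR-30a*, miR-30b*, miR-30c-1*, miR-30c-2* and miR-30e*). Lung RNA came from female C57BL/6 mice (Bom Tac, in the series title) that were pregnant at exposure. The Printex 90 group received a carbon black nanoparticle in nanopure water through the trachea, in 4 doses of 0.067 mg (0.268 mg in sum) given at days 7, 10, 15 and then 18 of gestation. The vehicle control group received nanopure water by the same route, and lungs of both groups were collected at weaning, 26 to 27 days after exposure. Each group had 4 arrays (n = 4 throughout). Whether every array was a different mouse is not stated, and neither is the dams' age.

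A miRNA hairpin is cut into a short duplex, of which the guide strand is usually kept by an Argonaute protein and the passenger strand is usually lost. Bases 2 to 8 of the loaded strand, the seed, pair with target messenger RNAs and lower their output. The miR-30 guides are abundant in lung and other epithelial organs, are known to repress connective tissue growth factor and factors of epithelial-mesenchymal change, and are often reported to fall in fibrosing tissue. The comparison of the particle with its vehicle asks whether this family differed in the dams' lungs at that time.

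Of the 10 strands, 7 were matched to the RefSeq miRNA table (build GRCm38.p6). miR-30b, miR-30b* and miR-30d are given by name only. The 7 mature sequences are shown because they group the family by seed and show how few bases separate its members. The seed is in capitals, 5′ to 3′.
miR-30a: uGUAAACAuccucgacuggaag
miR-30e: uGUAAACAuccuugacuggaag
miR-30c: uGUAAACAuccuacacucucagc
miR-30a*: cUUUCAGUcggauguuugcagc
miR-30e*: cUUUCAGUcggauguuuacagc
miR-30c-1*: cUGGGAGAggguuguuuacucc
miR-30c-2*: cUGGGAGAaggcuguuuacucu

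The 3 matched guides share the seed GUAAACA, which 4 of the 1679 mature miRNAs in the table used here (0.238%) hold. The other is miR-384-5p, which was not well above background on any of the 8 arrays. The guides miR-30b and miR-30d were not matched in that table, so the count leaves them out. It does not show whether they hold this seed. Counting from 1 at the 5′ end, miR-30a and miR-30e differ at a single base, C13U, and their passenger strands differ at a single base, G18A. miR-30a and miR-30c differ at 5 of the 22 positions compared, C13A, G14C, G18C, G19U and A20C, all outside the seed. The matched passengers fall into a pair with the seed UUUCAGU (miR-30a* and miR-30e*) and a pair with the seed UGGGAGA (miR-30c-1* and miR-30c-2*). Within the second pair the differences are G9A, U12C and C22U. How much signal strands this alike pass to each other's probes was not tested.

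The sequences of both strands of a hairpin were read from 4 loci of the same RefSeq table. Mir30a lies at chr1:23272269-23272339 on the plus strand, and its 71 bases are shown, with the guide and then the passenger in capitals. It is shown because its strand pair is the miR-30 pair whose ratio did not overlap between groups, as described further on.
Mir30a: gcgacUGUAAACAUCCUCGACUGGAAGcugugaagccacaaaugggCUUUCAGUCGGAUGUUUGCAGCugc
Mir30c-2 lies at chr1:23291701-23291784 on the plus strand, 19361 bases from Mir30a. Mir30c-1 (chr4:120769534-120769622) and Mir30e (chr4:120772606-120772697) lie on the minus strand, 2983 bases apart, within the span of Nfyc, a gene for a subunit of the NF-Y transcription factor. That annotation gives gene spans and not exons, so whether they are intronic is not stated. Mir30b and Mir30d are also neighbours, with 0 annotated genes between them. Mature miR-30c comes from 2 hairpins, so its guide signal cannot be assigned to either.

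The arrays had 248 to 283 mouse miRNAs detected, and 240 were detected on all 8. All arrays shared 1 slide and 1 scan. Row 1 of the slide held the vehicle control arrays and row 2 the Printex 90 arrays, and slide row cannot be told apart from group. Each signal below was divided by its array's 75th percentile, which ran from 580.8 to 804.7 intensity units. Markers of lung cell types were present: miR-126-3p of endothelium measured 40.6 ± 2.62 (SD) in controls and the epithelial miR-200c 1.27 ± 0.0604. The neural miR-9, miR-9* and miR-124 were not well above background on any array. In whole lung, fewer cells of a type and less miRNA per cell cannot be told apart.

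All 5 guides and 4 of the 5 passengers were detected on every array, and all 9 were slightly lower after Printex 90, by 0.073 to 0.15 log2 units. With limma, 0 of the 9 passed an adjusted p of 0.05 (background 0% of 268 tested miRNAs). At an unadjusted p under 0.05 there was 1, miR-30e*, where the background was 5.6% (15 of 268) in either direction and 2.61% lower. That unadjusted call was lost under several alternatives, among them the percentile over all mouse miRNAs, no scaling and each of vehicle control replicates 1, 3 and 4 and Printex 90 replicates 1 and 4 left out. In 0 of the 9 did the groups separate without overlap, against 1.49% of all tested miRNAs in either direction and 0.373% lower. The median difference was -0.11 for the 9 strands and -0.046 for all tested miRNAs, of which 65.7% were lower. That share depended on the scaling: 176 of 268 were lower as reported, 128 with the percentile taken over all mouse miRNAs, 139 with quantile normalization, 223 without scaling and 80 with normexp background correction. All 9 strands were lower also with the percentile over all mouse miRNAs and without scaling, 8 with quantile normalization (miR-30b at 0.0015) and 7 with normexp (miR-30b* at 0.054 and miR-30c-2* at 0.012).

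**Figure D1:**
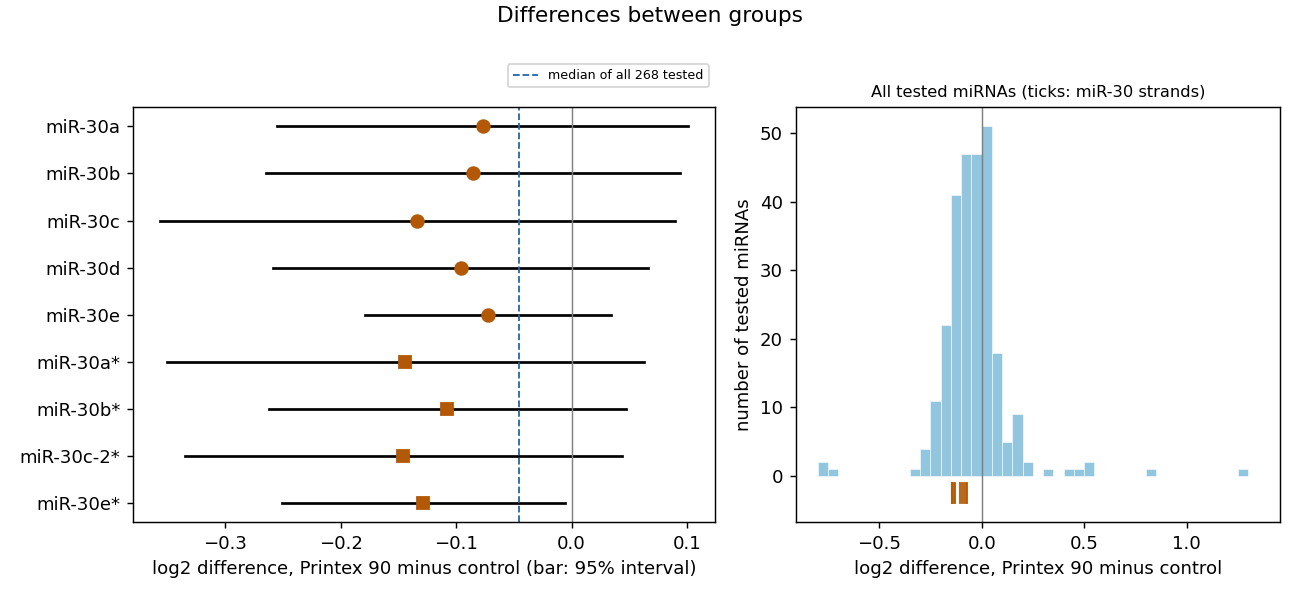
Left, log2 difference (Printex 90 minus vehicle control) of each miR-30 strand with its 95% limma interval, circles for guides and squares for passengers, and a dashed line at the median of all 268 tested miRNAs. Right, the number of tested miRNAs at each difference, with ticks below for the 9 strands, which lie between -0.15 and -0.073.

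Among the guides, miR-30a, whose hairpin lies on chromosome 1, had relative signals of 13.9, 12.0, 13.0 and 12.9 on vehicle control replicates 1 to 4. It had 11.1, 12.6, 13.7 and 11.8 on Printex 90 replicates 1 to 4. Printex 90 replicates 1 and 4 lay under every control, and replicate 3 lay above 3 of the 4. The means were 12.3 ± 1.14 and 12.9 ± 0.774, a log2 difference of -0.077 (SE 0.075), or 0.948-fold with a 95% interval of 0.838 to 1.07 (limma adjusted p = 0.767).

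miR-30e, which differs from miR-30a at a single base and shares its seed, measured 1.37, 1.32, 1.31 and 1.32 in controls and 1.21, 1.28, 1.37 and 1.21 after Printex 90. Here 3 of the 4 Printex 90 arrays lay below all controls and replicate 3 lay within their range. The means were 1.27 ± 0.0754 and 1.33 ± 0.0284. The log2 difference was -0.073 (SE 0.045, limma adjusted p = 0.706), and its interval of 0.883 to 1.02-fold was the narrowest of the 9.

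miR-30c, the guide made from hairpins on chromosomes 1 and 4, measured 2.86, 2.43, 2.81 and 2.71 in controls and 2.11, 2.63, 2.77 and 2.38 after Printex 90. Again replicates 1 and 4 were below every control. With means of 2.47 ± 0.289 and 2.70 ± 0.190, its difference of -0.13 (SE 0.094, limma adjusted p = 0.724) was the largest of the guides, and its interval ran from 0.781 to 1.06-fold.

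miR-30b and miR-30d come from neighbouring hairpins. miR-30b measured 3.69, 3.40, 3.58 and 3.86 in controls and 3.05, 3.77, 3.63 and 3.29 after Printex 90 (log2 difference -0.085, SE 0.076, limma adjusted p = 0.767). miR-30d measured 2.01, 1.90, 2.00 and 1.94 in controls and 1.72, 1.82, 2.11 and 1.72 after Printex 90 (-0.096, SE 0.069, limma adjusted p = 0.724). For miR-30d, 3 of the 4 Printex 90 arrays were below all controls, while replicate 3 was the highest of the 8. For miR-30b only replicates 1 and 4 were below all controls.

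**Figure D2:**
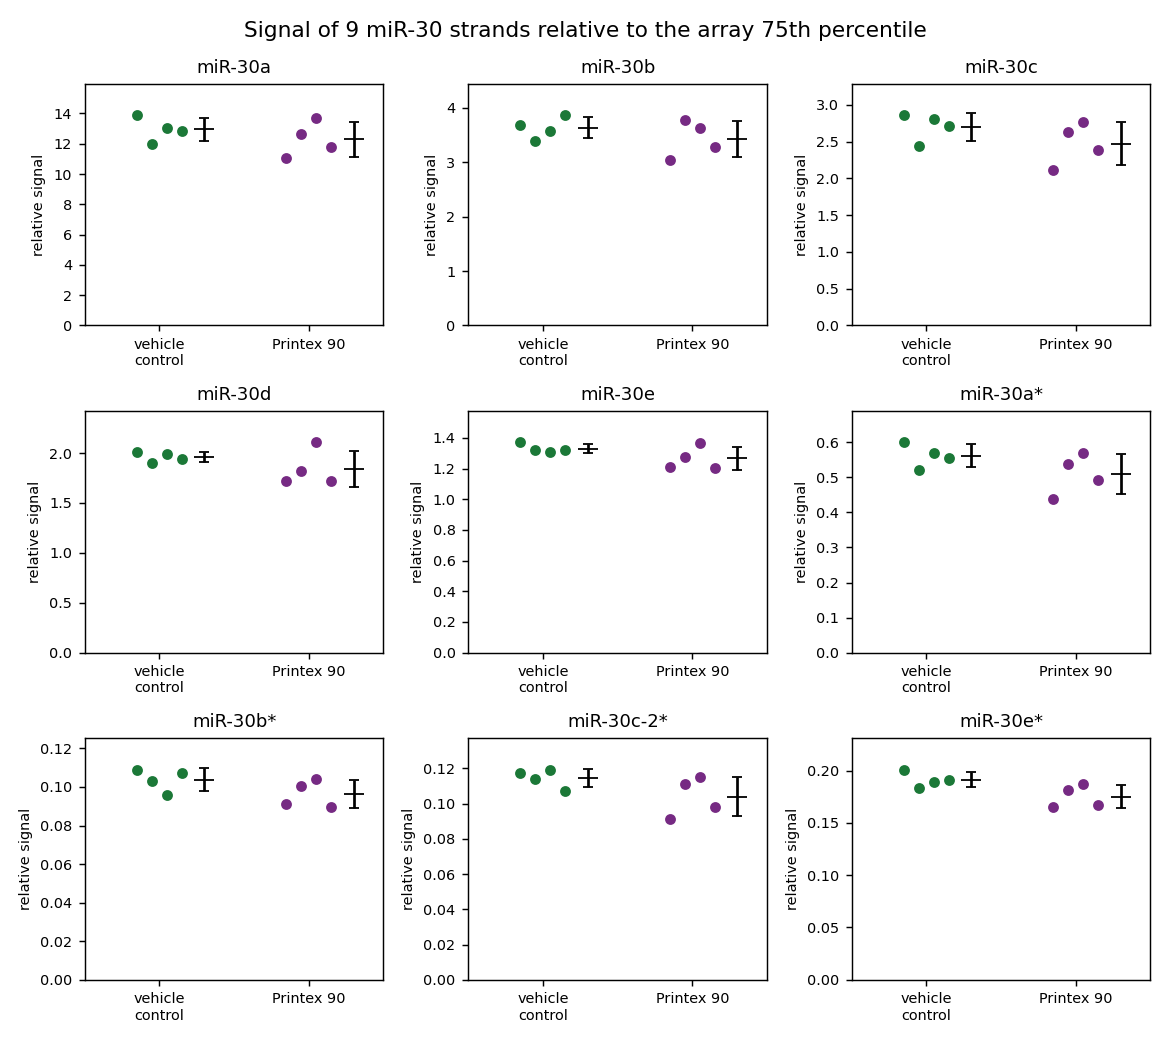
Signal of each detected miR-30 strand relative to the array's 75th percentile, with 1 point per array (replicates 1 to 4 from left to right) and the mean ± SD of 4 arrays beside them; every axis starts at 0. The groups overlap in all 9 panels, and the first and last Printex 90 points are the low ones.

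The passenger strands are fragments of the same hairpins that are usually degraded, and 4 were above background on every array. miR-30e* measured 0.201, 0.183, 0.189 and 0.191 in controls and 0.165, 0.181, 0.188 and 0.167 after Printex 90. On 3 of the Printex 90 arrays it lay below all controls, and replicate 3 lay inside their range. The means were 0.175 ± 0.0110 and 0.191 ± 0.00735, a log2 difference of -0.13 (SE 0.052). Its interval of 0.840 to 0.996-fold left out 1, but with all tested miRNAs taken into account the limma adjusted p was 0.706 (unadjusted 0.0421). Its unadjusted p was the 13th smallest of the 268.

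miR-30a*, with the same seed as miR-30e*, measured 0.6001, 0.520, 0.570 and 0.556 in controls and 0.439, 0.537, 0.571 and 0.493 after Printex 90. Replicates 1 and 4 were again below all controls, and replicate 3 was above 3 of them (log2 difference -0.14, SE 0.087, limma adjusted p = 0.706). miR-30c-2* measured 0.118, 0.114, 0.119 and 0.107 in controls and 0.0915, 0.111, 0.115 and 0.0978 after Printex 90. Replicates 1 and 4 were below all controls and the other Printex 90 arrays within their range. Its log2 difference was the largest of the family at -0.15 (SE 0.080, limma adjusted p = 0.706), with an interval of 0.793 to 1.03-fold.

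miR-30b* measured 0.109, 0.103, 0.0956 and 0.107 in controls and 0.0911, 0.101, 0.104 and 0.0896 after Printex 90 (-0.11, SE 0.065, limma adjusted p = 0.706). Replicates 1 and 4 were below all controls here as well. miR-30c-1* was not well above background on any of the 8 arrays. Its measured values, 0.0127 to 0.0283, lay under the floor of 0.0388 set for all miRNAs, so no fold is given. Of the 115 asterisk names on the design 27.0% were detected on all arrays and 71 on none. In the family, 4 of 5 were detected on all and 1 on none.

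The strands moved together from array to array, over a wider span than the difference between the group means. Each strand's log2 signal was set to its own mean over the 8 arrays. On Printex 90 replicates 1 and 4 all 9 strands were then below 0, and on vehicle control replicate 1 and Printex 90 replicate 3 all 9 were above 0. The mean of the 5 guides was -0.18 and -0.11 on the first pair and 0.10 on both arrays of the second pair. The 4 passengers gave -0.20 and -0.14 on the first pair, then 0.14 and 0.070. Printex 90 replicate 1 held the lowest value of 6 strands and replicate 4 that of the other 3 strands. Vehicle control replicate 1 held the highest of 6.

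**Figure D3:**
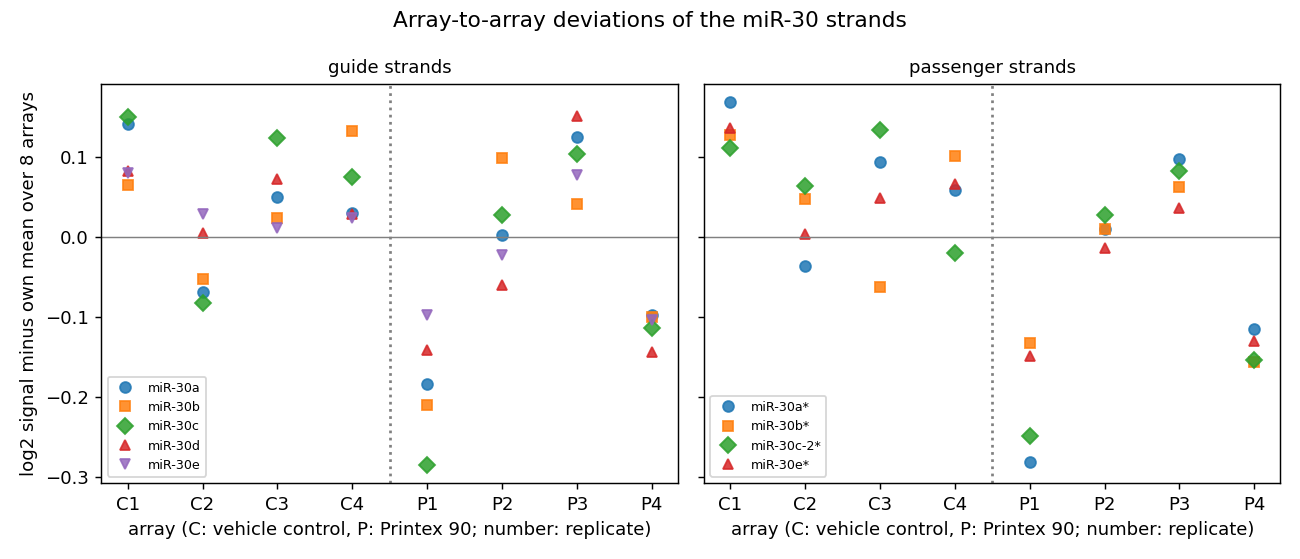
Log2 signal of each strand minus its own mean over 8 arrays, guides on the left and passengers on the right; C marks vehicle control and P Printex 90 arrays, with replicate numbers, and the dotted line separates the groups. All 9 strands lie below 0 on P1 and P4 and above 0 on C1 and P3.

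The family's median difference moved with the arrays left out. It was -0.065 without Printex 90 replicate 1 and -0.16 without Printex 90 replicate 3. Without replicate 3, 5 of the 9 strands had an unadjusted limma p under 0.05 and 0 passed the adjusted threshold (smallest limma adjusted p = 0.281, over 28 unadjusted calls in all). Replicate 3 also had the lowest 75th percentile (580.8) and the fewest detected miRNAs (248) of the 8 arrays. The median deviation of all tested miRNAs was -0.0028 on Printex 90 replicate 1, -0.092 on replicate 4, 0 on replicate 3 and 0.026 on vehicle control replicate 1.

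Levels of some cell type markers moved with the family on some of the arrays. The summed relative signal of the 4 endothelial markers (4 of 4 tested; all 4 lower as reported, 2 with normexp, 1 with quantile normalization) ran from 38.0 to 43.7 in controls and from 35.1 to 43.0 after Printex 90. It was lowest on Printex 90 replicates 1 (35.1) and 4 (37.5) and vehicle control replicate 2 (38.0), the same 3 arrays on which the guides were lowest. Most of this sum was miR-126-3p alone (40.6 in the control mean), so its course is that of a single miRNA. Another marker of the list, miR-222, measured 0.247 ± 0.0197 in controls and 0.234 ± 0.00517 over the Printex 90 arrays. The other markers of the list were more variable there than miR-222. In controls and then Printex 90, miR-126-5p measured 0.656 ± 0.0442 and 0.574 ± 0.0910, and miR-221 0.496 ± 0.0287 and 0.485 ± 0.0298. The striated muscle markers were highest on Printex 90 replicate 1 (3.06) and were 0.405 on replicate 4, and 3 of their 7 names were not well above background on any array. The epithelial markers were highest on Printex 90 replicate 3 (16.8) and the erythroid markers on vehicle control replicate 1 (46.9). On other arrays both lists ran against the family. The epithelial sum was 14.7 on Printex 90 replicate 1, where the family was low, and lowest on vehicle control replicate 4 (11.4). The erythroid sum was 30.6 on Printex 90 replicate 4, where all 9 strands were low, and 21.7 on replicate 3, where all 9 were high. The part of these cells in the family's difference was not tested.

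Within pairs of guide and passenger strands matched by name, the log2 ratio of guide to passenger signal was compared between groups. All 42 pairs on the array with both strands tested were used. A change in this ratio shows that the strands changed unequally. The 4 miR-30 pairs gave 0 calls (background 0% of 42 at a limma adjusted p under 0.05, and 9.52% at an unadjusted p, where miR-30 also had 0). The ratio was higher after Printex 90 in all 4 pairs as reported, but in the miR-30a pair alone with normexp and in the authors' deposited table, and 57.1% of all pairs were higher. For miR-30a and miR-30a* the log2 ratio was 4.53, 4.53, 4.52 and 4.53 in controls and 4.66, 4.55, 4.59 and 4.58 after Printex 90. All 4 Printex 90 arrays lay above all controls, which 4.76% of the 42 pairs did in either direction. The difference was 0.067 (SE 0.049, 95% interval -0.044 to 0.18, limma adjusted p = 0.561). The SD was 0.0074 in controls and 0.045 after Printex 90.

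The miR-30e pair, whose guide and passenger each differ from those of miR-30a by a single base, gave a difference of 0.056 (SE 0.049, limma adjusted p = 0.596). Its controls ran from 2.77 to 2.85 and its Printex 90 arrays from 2.82 to 2.88, so the groups overlapped. The miR-30b pair differed by 0.022 (SE 0.064) and the pair of miR-30c with miR-30c-2* by 0.012 (SE 0.063). The guide of that last pair comes from both Mir30c-1 and Mir30c-2, so its ratio does not belong to a single hairpin. For the 4 miR-30 pairs the intervals allowed a shift between strands of 0.914 to 1.13-fold.

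**Figure D4:**
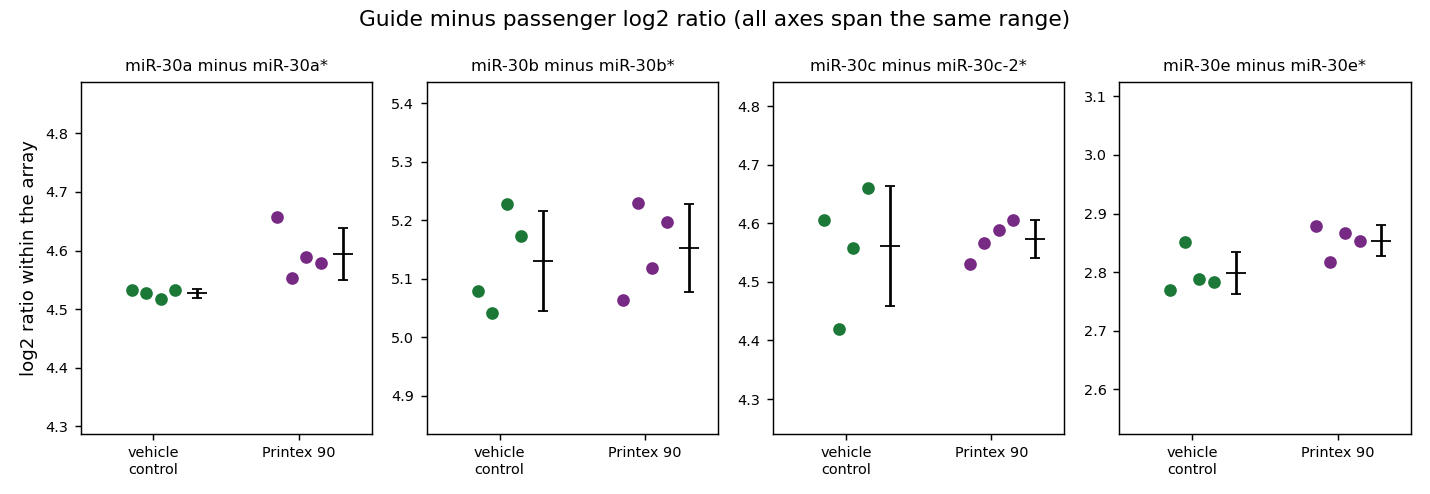
Log2 ratio of guide to passenger signal within each array for the 4 tested miR-30 pairs, with the mean ± SD of 4 arrays beside the points; all axes cover the same range and do not start at 0. The groups separate for miR-30a alone, with means that differ by 0.067.

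Each strand was read by 2 to 4 probes and 20 spots. Of the family's 25 probes, 19 were above background on all arrays, at least 2 for each detected strand, and all 19 were lower after Printex 90. Their log2 differences ran from -0.25 to -0.058. The widest gap between probes of a strand was 0.15, in miR-30e*, whose dimmer probe was at -0.25 and its other probe at -0.099. The probes of a strand ran the same way and differed in size.

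Some miRNAs outside the family lay close to its mean profile. Likeness was measured as the root mean square (RMS) difference of mean-centred log2 signals over the 8 arrays. The 10 guide pairs differed by 0.043 (miR-30d and miR-30e) to 0.094 (miR-30c and miR-30e), with a median of 0.067, against a median of 0.17 over all pairs of tested miRNAs. The neighbours miR-30b and miR-30d differed by 0.087. The closest of all 36 pairs were miR-30a* and miR-30c, at 0.022. Outside the family, the miRNAs nearest to the guides' mean profile were miR-23a (0.024), miR-26b (0.027), the endothelial miR-126-3p (0.033), miR-361 (0.036) and let-7d (0.037). A flat profile lay at 0.097 from that mean. Each guide was also set against the mean of the other guides, and each passenger against the mean of all guides. Of 259 tested miRNAs outside the family, 2 lay closer than miR-30a or miR-30e*, 16 closer than miR-30a* and 35, the most for any strand, closer than miR-30b.

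The spread of the strands lay within that of the tested miRNAs. Their SD within groups ran from 0.064 (miR-30e) to 0.14 (miR-30c) log2 units, with a median of 0.11, where all tested miRNAs had a median of 0.12 and quartiles of 0.081 and 0.17. The 95% intervals of the 9 strands reached from 0.781 to 1.07-fold, so changes beyond those bounds lay outside all of them.

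Other miRNAs that restrain matrix genes or epithelial-mesenchymal change, a list of 16 that includes the miR-29 and miR-200 families, gave 0 calls. Among the 15 tested, 7 lay above 0 and 8 below (median -0.014, all tested miRNAs -0.046). Its median was above 0 with the percentile over all mouse miRNAs (0.038), quantile normalization (0.033), normexp (0.048) and in the authors' deposited table (0.0042). Without scaling it was -0.085, with 3 higher and 12 lower. Those with the smallest p were miR-26a (-0.11, limma adjusted p = 0.706) and the epithelial miR-141 (0.097, limma adjusted p = 0.706). Of the 5 fibrosis-promoting miRNAs, 3 were higher and 2 lower (median 0.035), and 0 passed. Their median was -0.035 without scaling and 0.052 with quantile normalization. All 5 were higher with the percentile over all mouse miRNAs (0.088), with normexp (0.074) and in the authors' deposited table (0.043). The 2 with an unadjusted p under 0.05 were miR-21, induced in injured tissue (0.49, SE 0.086, limma adjusted p = 0.203), and miR-155 of activated leukocytes (0.50, SE 0.19, limma adjusted p = 0.706).

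Of the cell type lists, 0 had a called member. With quantile normalization the endothelial median turned to 0.020 and the leukocyte median to 0.0075; the leukocyte median was also above 0 with the percentile over all mouse miRNAs (0.034) and normexp (0.035). In the authors' deposited table both were above 0, at 0.044 and 0.064. The epithelial list (8 of 9 tested higher, median 0.089, but 5 of 9 and 0.019 without scaling) was led by miR-141 and miR-200c (0.089), the endothelial list (median -0.089) by miR-126-5p (-0.20) and miR-222 (-0.078), and smooth muscle (2 tested, both lower, median -0.081, but 1 higher and 1 lower with the percentile over all mouse miRNAs, with normexp and in the authors' deposited table) by miR-145 (-0.12) and miR-143 (-0.043). The leukocyte list (2 of 6 higher, median -0.019) was led by miR-155 and miR-150 (-0.14), and the erythroid list (3 tested, all lower, median -0.25) by miR-486 (-0.25) and miR-144 (-0.27). The striated muscle list (4 tested, all lower, median -0.74, but -0.23 with normexp and -0.30 in the authors' deposited table) was led by miR-206 (-0.30) and miR-1 (-0.77). The liver miRNA miR-122 differed by 0.44 (SE 0.99), and 0 of 3 neural names could be tested.

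In the authors' deposited table of log2 values, miR-30c stood apart from the rest of the family. Its values there ran from 8.85 (Printex 90 replicate 3) to 9.68 (vehicle control replicate 4), a range of 0.83, while the other detected strands had ranges of 0.14 to 0.43. The signals summed over probes gave a miR-30c range of 0.44. The table's values equal the median over a miRNA's spots after quantile normalization, and the 20 spots of miR-30c fall into 10 dim and 10 bright ones, with the median in the gap between. On vehicle control replicate 3 and Printex 90 replicate 3, a bright-probe spot had a log2 median signal of 5.91 and 5.73, where the next lowest spot of that probe was at 10.3 and 10.2. The scanner software had marked both spots as outliers. The median then fell to the dim probe's side, at 9.02 and 8.85, against 9.56 to 9.68 on the other arrays except Printex 90 replicate 1 (9.22), which also had a marked spot in that probe. That spot was at 9.67, where the next lowest was at 9.92. The dim probe's highest spot there was at 8.59, lower than on any other array. The deposited table gave miR-30c a log2 difference of -0.18 (limma adjusted p = 0.897).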

How the data were processed

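Lung RNA was prepared with the miRvana kit and labelled with Cy3, per the labels' protocols. The deposited intensity of each spot was written by Feature Extraction 10.7.3.1 (Agilent, design 021828), per the file headers, background-subtracted within arrays, with flags per spot and no scaling between arrays. The authors' deposited log2 value table was matched by the median spot signal after quantile normalization, with a correlation of 1 on every array; it was an alternative only.

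Flagged and control spots were left out, spots averaged per probe and probes summed per miRNA. A miRNA was detected where at least 50% of the spots of a probe were well above background. Arrays were divided by the 75th percentile of the 240 mouse miRNAs detected on all 8 arrays, floored at 0.0388 (the 5th percentile of detected signals) and put on the log2 scale. A fit in limma 3.58.1 (R 4.3.3) compared the groups for the 268 miRNAs that 4 or more arrays detected. Its tests were 2-sided, and p-values were adjusted over the whole table by Benjamini and Hochberg's method; strand ratios were adjusted over 42 pairs. The step was also run on simulated data, with noise independent between miRNAs and shifts larger than the differences of the miR-30 strands. That run does not show whether differences as small as theirs would be called. The p-values reflect only sample-to-sample spread, which may be technical, and precision is limited by having 4 arrays a group.

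The members and lists were chosen with earlier results of these data known. Named outside the family were each list's 2 members with the smallest p and the 5 miRNAs nearest the guides' mean profile; miR-384-5p was added for its seed. Probe sequences were not used. Same-numbered arrays of the groups shared a slide column, and no pairing of samples was stated. Correlations of same-numbered arrays, as deviations from their group means, were -0.13, -0.38, -0.47 and 0.44. With 4 arrays a group these cannot show whether the samples were paired. The files hold no mean spot signal, so normexp used the median signal.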

Additional observations from a re-analysis of the deposited data

How the results depend on the processing

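The strands' differences, their median, the strand pairs' differences and the counts of calls were recomputed under 21 alternatives of scaling, background, filter, probe summary, floor, spread model, weights, the deposited table, a replicate block and each array left out; list medians were recomputed under the scalings, normexp and the deposited table alone. The list medians and normexp on the median signal were chosen after seeing the data, the rest at the start. With limma, 0 of the 9 strands passed under any of them (limma adjusted p from 0.177 to 1), and 186 of the 189 values were below 0. The filters, the floors, the intensity trend and the replicate block left every strand's difference as reported. Their values below 0 therefore repeat the main ones. The family's median was -0.18 without scaling, -0.038 with normexp and -0.16 to -0.065 with an array left out. Minus the median of all tested miRNAs it was -0.11 to -0.033 over the alternatives. The -0.11 came with no detection filter, where undetected miRNAs set to the floor entered the median of all. With an array left out that difference ran from -0.095 to -0.033. Strands with an unadjusted p under 0.05 numbered 0 to 5, with 3 under quantile normalization, and such calls over all miRNAs 7 to 30. Calls over all tested miRNAs were 0 to 2 with an array left out, the 2 arising without Printex 90 replicate 3, and 0 otherwise. Strand pairs gave 1 call, outside the family, when probes were averaged as log2 values, with the floor doubled and in the deposited table.

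Signs turned for miR-30b with quantile normalization (0.0015) and, with normexp, for miR-30b* (0.054) and miR-30c-2* (0.012). The miR-30b pair turned with normexp (-0.092), averaged probes (-0.028) and the deposited table (-0.040), and ran from -0.0073 (without vehicle control replicate 2) to 0.055 with an array left out. The pair of miR-30c with miR-30c-2* turned with normexp (-0.099) and the deposited table (-0.11), and ran from -0.035 (without vehicle control replicate 2) to 0.045. The miR-30e pair turned with quantile normalization (-0.052), normexp (-0.013) and the deposited table (-0.0043). The cause was not tested. With the replicate number as a block the family's median was -0.11 and adjusted calls stayed at 0, while unadjusted calls over all miRNAs went from 15 to 12 and miR-30e* to an unadjusted limma p of 0.112; for 0 of the 4 numbers did same-numbered arrays correlate best.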
